A study of Mus musculus with 8 samples.

Results

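Collagen chains were examined in 4 sorted groups of arterial cells from mouse embryos. The chains were found by their names on the expression array: every non-control probe whose gene name is Col, a number, the letter a and a number. This gave 59 probes for 40 genes, of 31890 genes with a non-control probe on the array, and the brightest probe stood for each gene. By class the 40 genes are 6 type IV chains of basement membranes, 11 fibrillar chains, 3 beaded filament chains of type VI, 9 fibril-associated chains, 2 multiplexins, 3 network-forming chains, 4 transmembrane chains and 2 others.

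The embryos were E10.5 Tg(Ly6a-GFP) conceptuses from C57BL/6 x 129S1/SVImJ F1 females and transgenic males, so every group carried the transgene, in which Ly6a regulatory sequence drives green fluorescent protein (GFP). Arterial tissue (the aorta-gonad-mesonephros region with the umbilical and vitelline arteries) of 100 embryos was dissected and the sorted cells of each group were lysed for RNA. Both cell classes were sorted as CD31+, VEC+ (VE-cadherin) and ESAM+. Hematopoietic cluster cells (HC), which bud from the arterial wall, were Kit+, and endothelial cells (EC) were Kit-. GFP divided each class, which gave 130000 GFP- and 30000 GFP+ cells of the clusters, and 300000 GFP- and 70000 GFP+ cells of the endothelium. Each RNA was then divided in 2 fractions, amplified and hybridised separately. The 2 arrays of a group therefore share their animals and their sort, and every p-value below measures the spread between divided RNA, not between litters or sorts. The comparisons ask how the chains differ between GFP+ and GFP- cells of each class and between the classes at each GFP state.

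Collagens are secreted or membrane proteins whose chains wind around each other into a helix, and the small glycine of the repeat Gly-X-Y lets them pack. Type IV collagen forms the sheet-like network of basement membranes under endothelium, with laminins, nidogen and perlecan. Types I, II, III, V and XI assemble into fibrils of the surrounding stroma, which fibroblasts and mesenchyme produce in large amounts. Other chains coat fibrils, span the plasma membrane or, as the multiplexins of types XV and XVIII, link basement membranes to the matrix around vessels.

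Among the 40 brightest probes, 3 held GGN, the form of a glycine codon, at 4 or more of 6 places spaced by 9 bases. Helix-coding sequence has this spacing, but the reading frame was not checked. The probes of Col15a1 and Col13a1 are shown because these chains had the largest called fall and rise by GFP in endothelial cells. Capitals mark the triplets of the form GGN at these places. In the Col13a1 probe the last of them follows places without such a triplet, so it lies outside an unbroken repeat. The Col15a1 probe (6 of 6 places) lies at chr4:47283786-47283845 and the Col13a1 probe (4 of 6 places) within chr10:61330216-61330585, both in build mm9 as the array files give them.
Col15a1 probe: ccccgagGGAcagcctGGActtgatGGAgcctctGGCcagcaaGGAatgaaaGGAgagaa
Col13a1 probe: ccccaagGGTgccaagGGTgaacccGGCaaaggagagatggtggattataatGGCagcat

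RefSeq promoter windows of build GRCm38.p6 were found for 32 of the 40 chains (35 windows, 25 chains among those tested). The 250 bases before the annotated start are printed for Col1a2 and Col3a1, fibrillar chains that were lower together in every comparison below. They are also printed for Col4a5 and Col4a6, neighbours on the X chromosome that moved in opposite directions by GFP in endothelial cells. Capitals mark 3 motifs searched on both strands: the CCAAT box, the GC box GGGCGG and the TATA box TATAAA. The window of Col1a2 is chr6:4505368-4505617, plus strand, that of Col3a1 chr1:45311288-45311537, plus strand, that of Col4a5 chrX:141475169-141475418, plus strand, and that of Col4a6 chrX:141474077-141474326, minus strand, read toward its gene.
Col1a2 promoter: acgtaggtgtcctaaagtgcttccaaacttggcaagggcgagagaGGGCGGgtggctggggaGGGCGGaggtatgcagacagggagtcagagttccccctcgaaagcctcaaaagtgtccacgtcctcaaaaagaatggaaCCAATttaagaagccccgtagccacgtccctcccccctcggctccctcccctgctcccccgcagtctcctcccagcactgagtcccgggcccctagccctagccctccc
Col3a1 promoter: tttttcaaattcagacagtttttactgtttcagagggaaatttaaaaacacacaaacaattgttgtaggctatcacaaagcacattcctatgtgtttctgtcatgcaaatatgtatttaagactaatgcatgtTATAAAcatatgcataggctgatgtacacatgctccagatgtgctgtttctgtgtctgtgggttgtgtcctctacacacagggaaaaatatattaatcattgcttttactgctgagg
Col4a5 promoter: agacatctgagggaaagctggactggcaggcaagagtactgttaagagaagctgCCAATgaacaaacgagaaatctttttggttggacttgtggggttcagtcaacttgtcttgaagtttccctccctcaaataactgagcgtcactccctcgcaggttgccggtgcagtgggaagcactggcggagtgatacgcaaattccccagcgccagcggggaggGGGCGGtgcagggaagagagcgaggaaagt
Col4a6 promoter: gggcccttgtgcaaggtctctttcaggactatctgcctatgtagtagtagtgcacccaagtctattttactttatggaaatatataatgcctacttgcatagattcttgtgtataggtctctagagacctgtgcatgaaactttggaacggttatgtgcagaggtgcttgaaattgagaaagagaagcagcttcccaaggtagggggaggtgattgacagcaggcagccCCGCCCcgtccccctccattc

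Col1a2 held 1 CCAAT and 2 GGGCGG matches and no TATAAA, and Col3a1 held 1 TATAAA match and neither of the others. The windows differed in base composition, with 62% G and C for Col1a2, 35.2% for Col3a1, 54% for Col4a5 and 47.6% for Col4a6. Over all 32851 mouse windows of this length, 33.8% held CCAAT, 32.7% GGGCGG and 12.4% TATAAA, against 12, 20 and 5 of the 35 collagen windows. A match describes letters in the window and not a bound site. The start sites of Col4a6 and Col4a5 lie 1343 bases apart on opposite strands, facing away from each other. Col4a1 and Col4a2 on chromosome 8 are also read from opposite strands, but their annotated starts, 21 bases apart, lie so that the first bases of the transcripts overlap.

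Of the 40 chains, 31 were tested because both arrays of 1 or more groups were well above background. The other 9 were Col4a3, Col6a6, Col8a1, Col9a3, Col10a1, Col17a1, Col19a1, Col24a1 and Col28a1. Col19a1 was well above background on 1 GFP+ endothelial array, at -3.24 against -8.18 on the other array of that group, and Col17a1 likewise on 1 array of that group. The remaining 7 were not well above background on any array. A level here is log2 of the background-corrected signal minus the 75th percentile of its array, so a level of 0 is that percentile. Levels of different chains come from different probes and cannot be ranked against each other.

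On the arrays 54.6% to 63.7% of probes were well above background, with the lowest share on a GFP+ cluster array, and no probe was saturated. The GFP+ cluster arrays differed in scale, with 75th percentiles of 1477 and 1181 signal units against 708 to 1100 on the others. Their lowest levels well above background were also higher, at -4.63 and -4.75 against -6.18 to -4.98. The median absolute difference between the 2 arrays of a group, over the tested collagens, ran from 0.0652 in GFP+ endothelial cells to 0.116 in GFP+ cluster cells. The labelled cell classes were checked against 6 endothelial markers, which were well above background on all arrays. Their summed linear level, in multiples of the array's 75th percentile, was 101 to 106 in GFP- endothelial cells, 96.5 to 97.5 in GFP+ endothelial cells, 89.5 to 90.7 in GFP- cluster cells and 70.9 to 73.3 in GFP+ cluster cells. For 6 markers of clusters and blood it was 3.11 to 3.15, 4.51 to 4.57, 6.12 to 6.33 and 17.9 to 18.6 in the same order. In bulk RNA, fewer cells of a type and less RNA per cell cannot be told apart.

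Collagen transcripts were lowest in GFP+ cluster cells. Both of its arrays lay below all 6 other arrays for 20 of the 31 tested chains, against 21.4% of all 19538 genes tested. The highest levels were divided between the endothelial groups: GFP- endothelial cells stood above all other arrays for 13 chains (22% of all genes) and GFP+ endothelial cells for 9 (14.7%). GFP- cluster cells stood highest for 2 chains, Col7a1 and Col22a1 (7.81%), and GFP+ cluster cells for 1, Col4a4 (13.5%). GFP+ endothelial cells lay below all other arrays for 2 chains (26.7%), and neither GFP- group did for any chain (11.9% of all genes in endothelium and 3.65% in clusters). Between the 2 groups of a comparison, arrays did not overlap for 67.2% of all genes by GFP in clusters, 80.7% by GFP in endothelium, 76.5% between the GFP+ classes and 66.4% between the GFP- classes, so a lack of overlap alone is common on these arrays.

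In cluster cells, 22 of the 31 chains were lower in GFP+ than in GFP- cells, none was higher and 9 did not pass the test (limma, Benjamini-Hochberg adjusted p below 0.05 over all genes). At an unadjusted p below 0.05, 23 were lower and 0 higher, but the share of all genes at that threshold was not computed. The background was 32.7% of all genes called in either direction and 20.9% called lower. The median log2 difference over the chains was -0.66, against -0.08 over all genes. In endothelial cells 8 chains were higher in GFP+ cells, 12 were lower and 11 did not pass, where 51.5% of all genes were called (18.1% higher, 33.3% lower). The median over the chains was -0.31 and that over all genes -0.13. Fewer chains were called in endothelium without the second array of either endothelial group, and the share of all genes called fell as well.

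Between the classes, GFP+ cluster cells were lower than GFP+ endothelial cells for 22 chains and higher for 2, with 7 not passing, where 50.4% of all genes were called (24.2% lower, 26.1% higher). The median was -0.60, against 0.03 over all genes. GFP- cluster cells were lower than GFP- endothelial cells for 8 chains and higher for none, with 23 not passing, where 24.3% of all genes were called (12.4% lower). At an unadjusted p below 0.05 in limma, 12 were lower and 3 higher, again without a computed share of all genes. Here the median was -0.13, against 0.00422 over all genes. The count of called chains among GFP- cells fell without any single GFP- array, as did the share of all genes called. The comparison of the classes among GFP+ cells uses the same GFP+ arrays as both comparisons by GFP, so it is not separate evidence.

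Most called changes were under 2-fold as fitted. A called change with a fitted fold of at least 2 was found by GFP in clusters for 6 chains, all lower (2.39% of all genes lower and 2.99% higher). These were Col1a1, Col3a1, Col15a1, Col22a1, Col5a3 and Col12a1. The last pair was not well above background in GFP+ clusters, where the bound on the fold is 1.58 for Col5a3 and not above 1 for Col12a1. In endothelium there was 1 lower chain, Col15a1 (4.7%), and 1 higher chain, Col13a1 (2.45%). Between the GFP+ classes 7 chains were lower (2.18%) and 2 higher, Col4a4 and Col11a2 (7.69%). Neither Col4a4 nor Col11a2 was called there with 50 added to each signal before the log. The 7 include Col5a3, with a bound of 1.79, and Col12a1, with none above 1. Between the GFP- classes there was none (0.322% lower, 1.82% higher). The fitted interaction was this large for 3 chains, all negative (1.64%, and 4.03% positive), of which Col5a3 and Col12a1 rest on the same dim arrays and Col5a2 does not.

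The 2 comparisons by GFP share no array, and the chains sort by their calls in both. Col4a1, Col4a2, Col4a5, Col11a1 and Col27a1 were higher in GFP+ endothelial cells and lower in GFP+ cluster cells. Col4a6, Col1a1, Col1a2, Col2a1, Col3a1, Col5a1, Col6a1, Col9a1, Col9a2, Col14a1 and Col15a1, 11 chains in all, were lower in GFP+ cells of both classes. Col5a2, Col13a1 and Col18a1 were higher in GFP+ endothelial cells and did not pass in cluster cells. Col5a3, Col7a1, Col12a1, Col16a1, Col22a1 and Col23a1 were called lower in GFP+ cluster cells alone, and Col4a4 was called lower in GFP+ endothelial cells alone. Col6a2, Col8a2, Col11a2, Col20a1 and Col25a1 passed in neither. No chain was called higher in GFP+ cluster cells (11.8% of all genes). These joint sets are descriptions, since the share of all genes in each was not computed. Singly, 20.9% of all genes were lower in clusters, and 33.3% were lower and 18.1% higher in endothelium. Without at least 1 single array, the endothelial calls of Col1a2, Col4a4, Col4a5, Col4a6, Col9a2, Col11a1, Col13a1, Col18a1 and Col27a1 were lost. So were the cluster calls of Col9a2, Col11a1, Col22a1 and Col27a1.

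**Figure D1:**
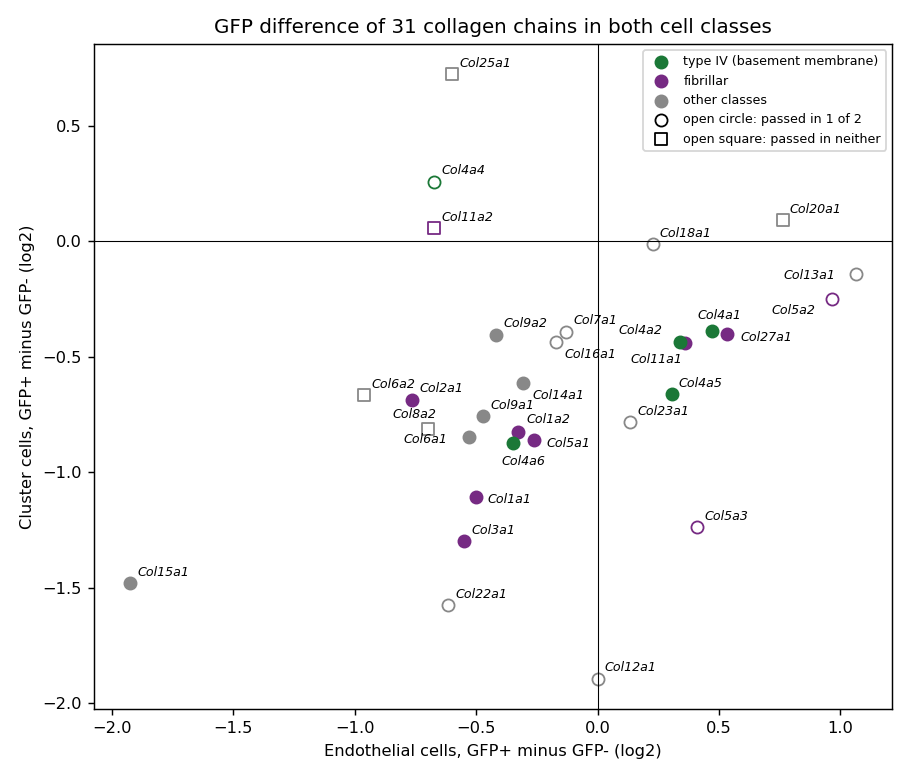
Log2 difference between GFP+ and GFP- cells in endothelial cells (x axis) and in cluster cells (y axis) for the 31 tested chains, each point the difference of 2 group means of 2 arrays. Filled circles passed in both comparisons, open circles in 1 and open squares in neither; Col4a1, Col4a2 and Col4a5 lie to the right of 0 and below it, and Col1a1, Col3a1 and Col15a1 to the left and below.

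The main type IV chains of basement membranes rose in GFP+ endothelium and fell in GFP+ clusters. Of 5 tested chains, 3 were higher and 2 lower in GFP+ than in GFP- endothelial cells (18.1% and 33.3% of all genes). In GFP+ against GFP- cluster cells 4 were lower and none higher (20.9% and 11.8%). Among GFP+ cells, 4 were lower and 1 higher in clusters than in endothelium (24.2% and 26.1%). Among GFP- cells, Col4a2 was lower in clusters (12.4% of all genes lower) and the other 4 did not pass.

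Col4a1 encodes the most widespread chain of the network, which joins with the product of Col4a2 in a single molecule, and its probe lies at chr8:11199009-11199068 (mm9). Its level was 4.29 and 4.25 in GFP- endothelial cells, 4.75 and 4.74 in GFP+ endothelial cells, 4.14 and 4.17 in GFP- cluster cells, and 3.74 and 3.80 in GFP+ cluster cells. No 2 groups overlapped, with GFP+ endothelium highest and GFP+ clusters lowest. GFP+ endothelial cells were 1.39-fold higher than GFP- ones (log2 difference 0.47, SE 0.04, adjusted p = 0.000859). GFP+ cluster cells were 1.31-fold lower than GFP- ones (-0.39, SE 0.04, adjusted p = 0.00193) and 1.97-fold lower than GFP+ endothelial cells (-0.98, adjusted p = 8.1e-05). The difference between the GFP- classes was -0.12 (adjusted p = 0.114).

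Col4a2, whose probe lies at chr8:11448840-11448899, followed the same order of groups. Its level was 3.92 and 3.83 in GFP- endothelial cells, 4.20 and 4.23 in GFP+ endothelial cells, 3.51 and 3.53 in GFP- cluster cells, and 3.03 and 3.13 in GFP+ cluster cells, again without overlap. The GFP+ cells were 1.26-fold higher in endothelium (0.34, SE 0.06, adjusted p = 0.00521) and 1.35-fold lower in clusters (-0.43, SE 0.06, adjusted p = 0.00316). Cluster cells were lower than endothelial cells by 2.19-fold among GFP+ cells (adjusted p = 0.000107) and by 1.28-fold among GFP- cells (adjusted p = 0.0107). The last call was lost without the first GFP- endothelial array (-0.32), without either GFP- cluster array (-0.35 and -0.37) and with the authors' normalized table.

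Col4a5 and Col4a6 encode chains that occur together in specialised basement membranes and share the gene interval whose promoters are printed above. Col4a5 stood at -1.71 and -1.62 in GFP- endothelial cells, -1.48 and -1.24 in GFP+ endothelial cells, -1.59 and -1.61 in GFP- cluster cells, and -2.31 and -2.21 in GFP+ cluster cells. Col4a6 stood at -1.75 and -1.73, -2.03 and -2.15, -1.84 and -1.93, and -2.67 and -2.85 in the same order. Both were lowest in GFP+ clusters without overlap, while in GFP+ endothelium Col4a5 was highest and Col4a6 was below both GFP- groups. The GFP difference in endothelium was 0.30 for Col4a5 (SE 0.09, adjusted p = 0.0351) and -0.35 for Col4a6 (SE 0.08, adjusted p = 0.0144). In clusters it was -0.66 for Col4a5 (adjusted p = 0.00382) and -0.87 for Col4a6 (adjusted p = 0.000822). The endothelial calls of both chains rested on single arrays: without the second GFP+ endothelial array they were 0.18 for Col4a5 (adjusted p = 0.111) and -0.29 for Col4a6 (adjusted p = 0.0676), and without either GFP- endothelial array the adjusted p was 0.145 or 0.0768 for Col4a5 and 0.0555 or 0.0672 for Col4a6. A second, dimmer probe of Col4a6 gave differences of -0.39 in endothelium, -0.14 in clusters and 0.25 for clusters against endothelium among GFP+ cells, where the brightest probe gave -0.67. With the mean of both probes that class difference was -0.21 (adjusted p = 0.122). The endothelial call of Col4a5 was also lost with the authors' normalized table.

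Col4a4, a chain best known from the kidney filter, went the other way at low signal. Its level was -4.55 and -4.28 in GFP- endothelial cells, -5.27 and -4.91 in GFP+ endothelial cells (1 array not well above background), -4.31 and -4.24 in GFP- cluster cells, and -3.97 and -4.06 in GFP+ cluster cells. It was lower in GFP+ than in GFP- endothelium (-0.67, SE 0.14, adjusted p = 0.0117) and higher in GFP+ clusters than in GFP+ endothelium (1.07, adjusted p = 0.00224). Both calls of Col4a4 were lost with 50 added to each signal before the log, and the endothelial one also under quantile normalization. Its other 2 probes were not well above background on any array, and without the second GFP- endothelial array the endothelial difference was -0.54 (adjusted p = 0.0597).

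The multiplexins, whose C-terminal pieces are released as endostatin (type XVIII) and restin (type XV), divided. Col18a1 stood at 5.73 and 5.68 in GFP- endothelial cells, 5.92 and 5.94 in GFP+ endothelial cells, 5.43 and 5.36 in GFP- cluster cells, and 5.45 and 5.32 in GFP+ cluster cells. The cluster groups overlapped with each other and lay below both endothelial groups. GFP+ endothelial cells were 1.17-fold higher than GFP- ones (0.23, SE 0.06, adjusted p = 0.0254), a call lost without any single endothelial array (differences of 0.20 to 0.25, adjusted p = 0.0641 to 0.11). Cluster cells were 1.46-fold lower than endothelial cells among GFP+ cells (adjusted p = 0.00118) and 1.24-fold lower among GFP- cells (adjusted p = 0.0194). The latter call was lost without any single GFP- array (differences of -0.28 to -0.35, adjusted p = 0.066 to 0.101). The call between the GFP- classes was also lost under quantile normalization and with the authors' normalized table. The difference by GFP in clusters was -0.01 (adjusted p = 0.916), and a second probe gave like values.

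Col15a1 had the largest fall of any collagen by GFP in endothelial cells. Its level was -1.23 and -1.38 in GFP- endothelial cells, -3.19 and -3.27 in GFP+ endothelial cells, -1.63 and -1.59 in GFP- cluster cells, and -3.32 and -2.87 in GFP+ cluster cells. Both GFP- groups lay above both GFP+ groups, and the GFP+ groups overlapped. The fall was 3.8-fold in endothelium (-1.93, SE 0.15, adjusted p = 0.000507) and 2.79-fold in clusters (-1.48, SE 0.15, adjusted p = 0.00119), and this was the single collagen call in endothelium that also passed after normexp background correction. The classes did not differ beyond the spread at either GFP state (0.14, adjusted p = 0.468 among GFP+ cells; -0.31, adjusted p = 0.192 among GFP- cells). Its 2 other probes fell by 1.32 and 1.48 on the log2 scale in endothelium and by 1.51 and 1.18 in clusters.

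**Figure D2:**
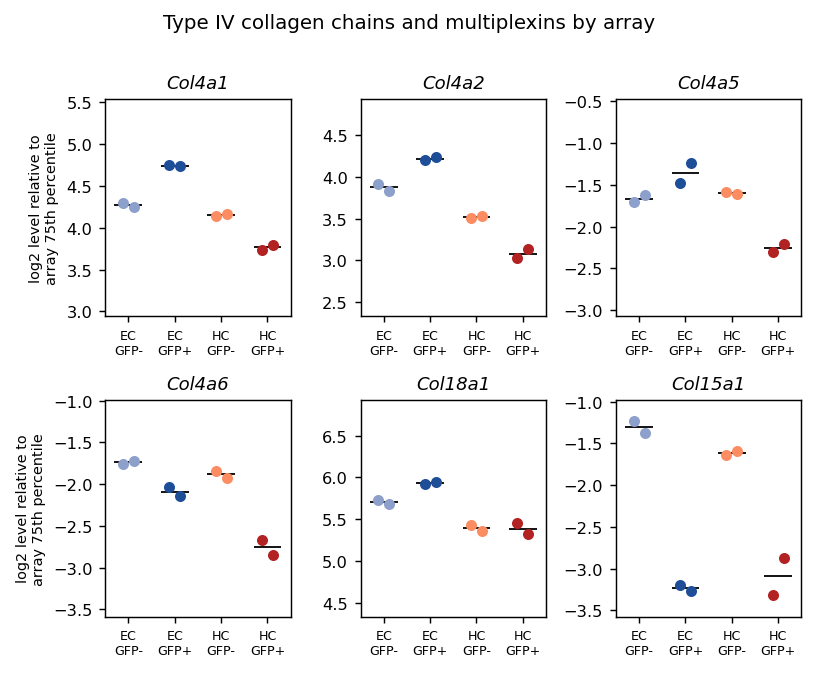
Level of 4 type IV chains and both multiplexins on each array (log2 relative to the array's 75th percentile); points are arrays, bars are means of 2 arrays, and each panel has its own y axis. Col4a1 and Col4a2 are highest in GFP+ endothelial cells and lowest in GFP+ cluster cells, while Col15a1 is low in both GFP+ groups.

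The chains of types I, II and III and Col5a1 were lower in GFP+ cells of both classes, whereas Col5a2, Col11a1 and Col27a1 rose in GFP+ endothelium. Of 10 tested fibrillar chains, 8 were lower and none higher in GFP+ than in GFP- cluster cells (20.9% and 11.8% of all genes). In endothelium 5 were lower and 3 higher (33.3% and 18.1%). Among GFP+ cells 9 were lower and 1 higher in clusters than in endothelium (24.2% and 26.1%). Among GFP- cells 4 were lower and none higher (12.4% and 11.9%). The median difference by GFP was -0.76 in clusters and -0.30 in endothelium.

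Col1a1 and Col1a2 encode the chains of type I collagen, the main fibril of connective tissue, and Col3a1 the single chain of type III collagen, which is abundant in vessel walls. Col1a1 (probe at chr11:94813115-94813174, mm9) stood at 2.28 and 2.21 in GFP- endothelial cells, 1.75 and 1.74 in GFP+ endothelial cells, 1.84 and 1.85 in GFP- cluster cells, and 0.72 and 0.75 in GFP+ cluster cells. Col1a2 (chr6:4490619-4490678) stood at 3.01 and 2.87, 2.67 and 2.55, 2.54 and 2.53, and 1.67 and 1.75 in the same order. Col3a1 (chr1:45405589-45405648) stood at 2.18 and 2.22, 1.67 and 1.63, 1.96 and 1.92, and 0.68 and 0.61. In all 3 genes GFP- endothelium was highest and GFP+ clusters lowest, with no overlap between any groups.

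In clusters the fall with GFP was 2.16-fold for Col1a1 (-1.11, SE 0.05, adjusted p = 6.96e-05), 1.77-fold for Col1a2 (-0.83, SE 0.07, adjusted p = 0.000715) and 2.46-fold for Col3a1 (-1.30, SE 0.05, adjusted p = 5.42e-05). In endothelium it was smaller: 1.41-fold for Col1a1 (-0.50, adjusted p = 0.000821), 1.26-fold for Col1a2 (-0.33, adjusted p = 0.0128) and 1.46-fold for Col3a1 (-0.55, adjusted p = 0.000744). The endothelial call of Col1a2 was lost without the first GFP- endothelial array (-0.26, adjusted p = 0.0594), without the second GFP+ endothelial array (-0.27, adjusted p = 0.0606) and under quantile normalization (-0.20, adjusted p = 0.0817). GFP+ clusters were lower than GFP+ endothelium by 2.01-fold for Col1a1 and Col3a1 and 1.86-fold for Col1a2 (adjusted p = 8.27e-05, 0.000101 and 0.000416). Among GFP- cells the class differences were -0.40 for Col1a1, -0.40 for Col1a2 and -0.26 for Col3a1 (adjusted p = 0.00463, 0.0154 and 0.018). The GFP- calls of Col1a2 and Col3a1 were lost without either GFP- cluster array or the first GFP- endothelial array (adjusted p from 0.0634 to 0.0968), and that of Col3a1 also without the second GFP- endothelial array (adjusted p = 0.0832).

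Col2a1, the fibrillar chain of cartilage and notochord sheath, also fell in GFP+ cells of both classes. Its level was 0.75 and 0.71 in GFP- endothelial cells, -0.02 and -0.05 in GFP+ endothelial cells, 0.15 and 0.10 in GFP- cluster cells, and -0.53 and -0.59 in GFP+ cluster cells, with no overlap. The difference by GFP was -0.76 in endothelium (SE 0.05, adjusted p = 0.000274) and -0.69 in clusters (SE 0.05, adjusted p = 0.000293). The difference between clusters and endothelium was -0.53 among GFP+ cells (adjusted p = 0.00054) and -0.61 among GFP- cells (adjusted p = 0.00124). Of 5 notochord and cartilage markers, Shh and Matn1 were not well above background on any array and the summed level of the list was 0.277 to 0.278, 0.208 to 0.211, 0.216 to 0.267 and 0.156 to 0.19 in GFP- endothelial, GFP+ endothelial, GFP- cluster and GFP+ cluster cells. Sox9 was lower in GFP+ than in GFP- clusters (-0.85) and T was lower in GFP+ clusters than in GFP+ endothelium (-1.06). Their part in the Col2a1 differences was not tested.

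The type V chains, which set the diameter of type I fibrils from inside, went apart. Col5a1 stood at 0.14 and 0.13 in GFP- endothelial cells, -0.10 and -0.16 in GFP+ endothelial cells, 0.05 and -0.04 in GFP- cluster cells, and -0.84 and -0.87 in GFP+ cluster cells. Col5a2, its usual partner, stood at -0.66 and -0.45, 0.49 and 0.34, -0.47 and -0.60, and -0.71 and -0.86 in the same order. Col5a1 was highest in GFP- endothelium, whereas Col5a2 was highest in GFP+ endothelium and its GFP- groups overlapped. Col5a1 fell with GFP in endothelium (-0.26, SE 0.05, adjusted p = 0.00759) and in clusters (-0.86, SE 0.05, adjusted p = 0.00017). Col5a2 rose 1.96-fold in endothelium (0.97, SE 0.10, adjusted p = 0.00127), and its difference in clusters was -0.25 (adjusted p = 0.124). Among GFP+ cells clusters were lower by 1.65-fold for Col5a1 (adjusted p = 0.000247) and by 2.29-fold for Col5a2 (adjusted p = 0.000532). The third chain, Col5a3, stood at -4.18 and -4.34, -3.80 and -3.89, -4.06 and -3.996, and -5.03 and -5.51, and was not well above background in GFP+ clusters. There it was at least 1.58-fold lower than in GFP- clusters (adjusted p = 0.00312) and at least 1.79-fold lower than in GFP+ endothelium (adjusted p = 0.00126), each bound set against the lowest signals well above background on the dim arrays.

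Col11a1, a minor fibril chain related to type V, and Col27a1, a chain of thin cartilage fibrils, were both dim and rose in GFP+ endothelium. Col11a1 stood at -3.90 and -3.57 in GFP- endothelial cells, -3.35 and -3.40 in GFP+ endothelial cells, -3.53 and -3.51 in GFP- cluster cells, and -3.89 and -4.03 in GFP+ cluster cells. Col27a1 stood at -3.18 and -3.29, -2.88 and -2.52, -2.88 and -2.91, and -3.32 and -3.28 in the same order. GFP+ endothelium was highest for both, and GFP- endothelium overlapped GFP+ clusters. The endothelial difference was 0.36 for Col11a1 (SE 0.12, adjusted p = 0.0449) and 0.54 for Col27a1 (SE 0.12, adjusted p = 0.0132). In clusters it was -0.44 for Col11a1 (adjusted p = 0.0346) and -0.40 for Col27a1 (adjusted p = 0.0489), and among GFP+ cells clusters were lower than endothelium by 1.5-fold and 1.51-fold (adjusted p = 0.00929 and 0.00913). Both calls of Col11a1 by GFP were lost under quantile normalization, with the authors' normalized table and without a filter on dim probes. With the slide as a block the cluster call of Col27a1 (adjusted p = 0.061) and the endothelial call of Col11a1 (adjusted p = 0.0582) were lost. Those 2 calls and the cluster call of Col11a1 were also lost without several single arrays (adjusted p from 0.0582 to 0.17), and the endothelial call of Col27a1 without the second GFP- endothelial array (0.48, adjusted p = 0.0701).

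Col11a2 was not well above background in either endothelial group and stood at -4.93 and -5.48 in GFP- endothelial cells and -6.09 and -5.67 in GFP+ endothelial cells. It stood at -4.61 and -4.32 in GFP- clusters, and at -4.65 and -4.17 in GFP+ clusters, where 1 array was well above background. It was the fibrillar chain called higher in GFP+ clusters than in GFP+ endothelium (adjusted p = 0.00686). The fold was 2.23 with each dim array set no lower than its lowest signal well above background, and 1 of the 2 GFP+ cluster arrays measured. Between the GFP- classes this fold was 1.55, where the fit did not pass (adjusted p = 0.102). Col11a2 lay above that signal on some dim arrays without being well above background, so neither fold is a strict lower bound. With 50 added to each signal before the log, the GFP+ difference was 0.15 (adjusted p = 0.504).

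**Figure D3:**
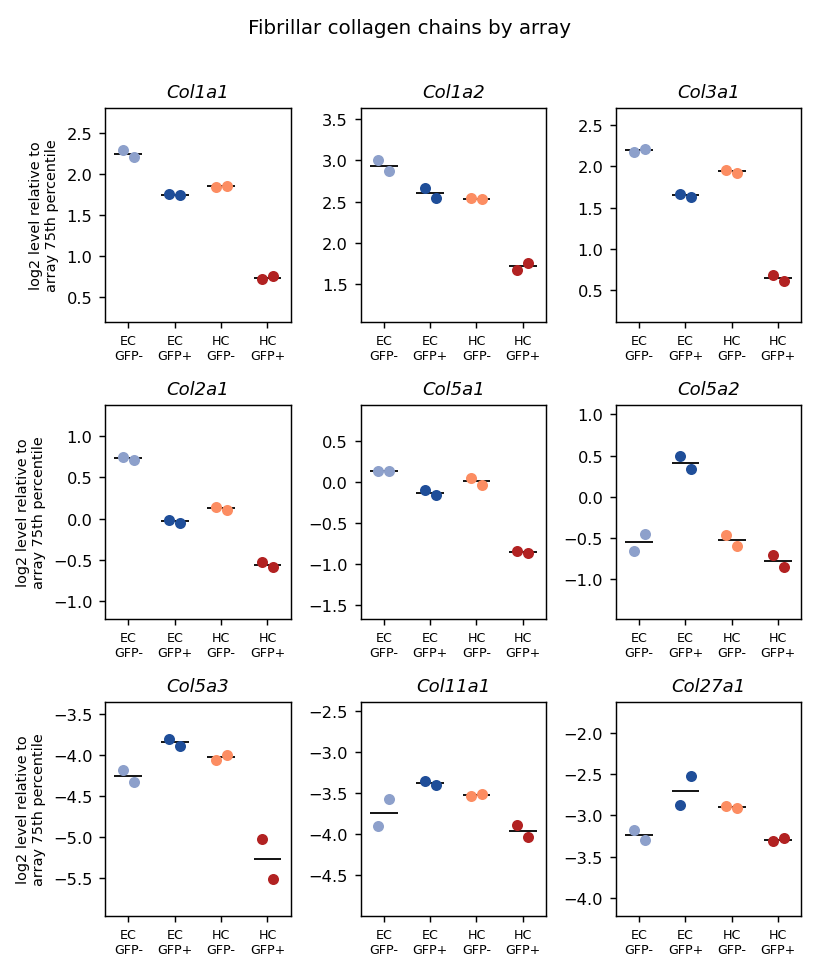
Level of 9 fibrillar chains on each array (log2 relative to the array's 75th percentile); points are arrays, bars are means of 2 arrays, and each panel has its own y axis. Col1a1, Col1a2, Col3a1, Col2a1 and Col5a1 are lower in GFP+ than in GFP- cells of both classes, and Col5a2 is highest in GFP+ endothelial cells.

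Chains that join in a single molecule were compared on the same array, as the difference between their 2 probes. This difference has no meaning as a level, but its shift between groups shows unequal change. Col5a2 minus Col5a1 was -0.79 and -0.58 in GFP- endothelial cells, 0.59 and 0.50 in GFP+ endothelial cells, -0.51 and -0.56 in GFP- cluster cells, and 0.14 and 0.01 in GFP+ cluster cells. It thus shifted by 1.23 with GFP in endothelium and by 0.61 in clusters, with no overlap between GFP+ and GFP- arrays. For type I, Col1a2 minus Col1a1 shifted by 0.17 in endothelium and 0.28 in clusters. For type IV, Col4a2 minus Col4a1 shifted by -0.13 and -0.04. These shifts were described and not tested, since an exact test of 2 arrays against 2 cannot give a two-sided p below 0.333.

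Mesenchyme markers are set beside the fibrillar chains, which stromal cells produce in large amounts. Of 14 such markers 13 were tested, and Myh11 was not well above background on any array. By GFP, 9 were lower and 2 higher (Acta2 and Dlk1) in clusters, where 20.9% of all genes were lower and 11.8% higher. In endothelium 8 were lower and the same 2 higher (33.3% and 18.1%). The medians were -0.76 in clusters and -0.41 in endothelium. Between the classes, 9 were lower and 1 higher in clusters among GFP+ cells (24.2% and 26.1%). Among GFP- cells 7 were lower and 1 higher (12.4% and 11.9%). Dcn (decorin) stood at 1.38 and 1.25, -0.11 and -0.13, 0.25 and 0.36, and -0.77 and -0.78 in GFP- endothelial, GFP+ endothelial, GFP- cluster and GFP+ cluster cells, Lum (lumican) at 1.85 and 2.02, 1.04 and 1.01, 0.90 and 0.86, and -0.12 and -0.14. Pdgfra fell by 1.25 on the log2 scale with GFP in clusters (adjusted p = 9.51e-05) and the endothelial difference was -0.38 (adjusted p = 0.00398). Prrx1 was not well above background in GFP+ clusters and at least 2.55-fold lower there than in GFP- clusters (adjusted p = 0.00223). The summed level of the list was 30.6 to 30.9, 26.9 to 27.8, 27.2 to 27.7 and 26.5 to 27 in the same order. Most of the tested markers thus fell with GFP, as Col1a1, Col1a2, Col3a1, Col2a1 and Col5a1 did, while Acta2 and Dlk1 rose and the summed level changed little in clusters. Their part in the collagen differences was not tested.

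Other cell types were also read from marker lists. Over 8 erythroid markers the summed level was 635 to 655 in GFP- endothelial, 138 to 145 in GFP+ endothelial, 912 to 929 in GFP- cluster and 130 to 131 in GFP+ cluster cells, and all 8 fell with GFP in both classes. Over 8 macrophage markers it was 4.1 to 4.18, 8.71 to 9.01, 8.27 to 8.54 and 20.2 to 20.5, over 6 platelet markers 19.7 to 20.1, 9.82 to 10.498, 5.62 to 5.65 and 10.2 to 10.3, and over 6 endoderm and liver markers 15.6 to 16.4, 12.1 to 12.4, 11.8 to 11.8 and 14.3 to 14.6. Over 4 epithelial markers it was 5.9 to 6, 5.23 to 5.32, 5.12 to 5.22 and 7.3 to 7.34, with Epcam not well above background on any array. The part of these cells in the collagen differences was not tested.

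The 16 tested chains outside both classes held 10 falls and no rise with GFP in clusters, where 20.9% of all genes fell, and 5 falls and 2 rises in endothelium, where 33.3% fell and 18.1% rose. Among GFP+ cells 9 were lower in clusters than in endothelium (24.2% of all genes), and among GFP- cells 3 were lower (12.4%). The counts in endothelium and among GFP- cells are near or below those of all genes called in either direction (51.5% and 24.3%). Type VI collagen, which forms beaded filaments around cells, was represented by Col6a1 and Col6a2. Col6a1 fell 1.8-fold with GFP in clusters and 1.44-fold in endothelium (adjusted p = 0.00055 and 0.00221) and was lower in clusters at both GFP states. The GFP- call was lost without either GFP- endothelial array or the first GFP- cluster array (adjusted p from 0.0513 to 0.0634). Col6a2 did not pass in any comparison, with differences of -0.66 in clusters and -0.96 in endothelium, and its 2 GFP+ cluster arrays stood at -5.01 and -3.90.

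Among the fibril-associated chains, which sit on the surface of fibrils, 6 of 7 fell with GFP in clusters (20.9% of all genes). Col12a1 stood at -4.87 and -4.75 in GFP- endothelial cells, -4.83 and -4.79 in GFP+ endothelial cells, -4.58 and -5.37 in GFP- cluster cells, and -6.69 and -7.04 in GFP+ cluster cells, where neither array was well above background. It was called lower in GFP+ clusters than in GFP- clusters (adjusted p = 0.00391) and than in GFP+ endothelium (adjusted p = 0.00191), but so near background that no bound above 1 could be set. Col22a1, found at tissue junctions such as muscle to tendon, stood at -3.59 and -3.24, -4.01 and -4.06, -2.89 and -3.06, and -4.05 and -5.05. It was 2.98-fold lower in GFP+ than in GFP- clusters (-1.57, SE 0.32, adjusted p = 0.0155), with 1 GFP+ cluster array not well above background. That call was lost without either GFP- cluster array (adjusted p = 0.0786 and 0.0574). Col9a1, Col9a2, Col14a1 and Col16a1 fell in clusters by 0.40 to 0.76 on the log2 scale, and Col20a1 did not pass in any comparison. Col9a1, Col9a2 and Col14a1 also fell in endothelium, by 0.31 to 0.47. The calls of Col9a2 by GFP were lost without either GFP- cluster array or the first GFP+ cluster array (adjusted p from 0.0563 to 0.117), and in endothelium without the second GFP- or the second GFP+ array (adjusted p = 0.0787 and 0.0716). Dimmer probes of Col9a1 and Col14a1 gave the opposite sign for clusters against endothelium among GFP+ cells, and that of Col9a1 also by GFP in clusters (0.19 against -0.76). With the mean of their probes the cluster calls of Col9a1 (-0.28, adjusted p = 0.196), Col14a1 (-0.42, adjusted p = 0.0557) and Col16a1 (-0.28, adjusted p = 0.0633) were lost.

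The transmembrane chains, which stay anchored in the cell surface, included the largest rise by GFP in endothelium. Col13a1 stood at -4.21 and -4.43 in GFP- endothelial cells, -3.24 and -3.27 in GFP+ endothelial cells, -3.65 and -4.72 in GFP- cluster cells, and -4.36 and -4.29 in GFP+ cluster cells. GFP+ endothelium lay above every other array, and the other groups overlapped. It was 2.09-fold higher in GFP+ than in GFP- endothelium (1.07, SE 0.33, adjusted p = 0.0388) and 2.11-fold lower in GFP+ clusters than in GFP+ endothelium (adjusted p = 0.0385). Both calls were lost under quantile normalization (adjusted p = 0.0875 and 0.0519) and without any single endothelial or GFP+ cluster array (adjusted p from 0.0618 to 0.153). Col23a1 was alike in 3 groups, at -0.57 and -0.62, -0.52 and -0.40, and -0.58 and -0.48, and lower in GFP+ clusters, at -1.37 and -1.25. The fall in GFP+ clusters was 1.72-fold against GFP- clusters (adjusted p = 0.00081) and 1.8-fold against GFP+ endothelium (adjusted p = 0.000462). Col25a1 did not pass in any comparison, with differences from -0.85 to 0.72. A dimmer probe gave the opposite sign by GFP in clusters (-1.16 against 0.72) and between the GFP- classes (0.69 against -0.85). In endothelium both probes fell with GFP (-0.61 and -0.60).

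Col7a1, the chain of the anchoring fibrils of skin, fell 1.31-fold with GFP in clusters (adjusted p = 0.0037) and did not pass in the other comparisons between groups. Col8a2, a network-forming chain, had differences from -0.53 to -0.81 and did not pass in any comparison. It was not well above background in GFP+ clusters. Its second probe gave -1.56 by GFP in clusters and -0.83 in endothelium. Between the classes that probe gave -1.03 among GFP+ cells and -0.30 among GFP- cells.

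The interaction asks whether the GFP difference in clusters was unlike that in endothelium, and it was called for 17 of the 31 chains, where 31.1% of all genes were called. The GFP difference was the lower one in clusters for 16 chains and in endothelium for 1, Col4a4. By class it was called for all 5 tested type IV chains, 8 of 10 fibrillar chains and 4 of the other 16. The value was -0.86 for Col4a1 (SE 0.06, adjusted p = 0.00165), -0.77 for Col4a2 (adjusted p = 0.00314) and -0.97 for Col4a5 (adjusted p = 0.0058). It was -1.22 for Col5a2 (adjusted p = 0.0046), -0.75 for Col3a1 (adjusted p = 0.00248) and -0.61 for Col1a1 (adjusted p = 0.00346). For Col2a1 and Col9a2 it was 0.08 and 0.01 (adjusted p = 0.393 and 0.949), with both chains lower in GFP+ cells of each class. For Col15a1 it was 0.45 (adjusted p = 0.159). A call means that the difference was unequal, whether the sign turned, as for Col4a1, or the size differed, as for Col3a1.

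Genes that build, cut or bind collagen were read from 6 lists, and their counts are descriptions to be set against the shares of all genes. Of all genes, 20.9% were lower and 11.8% higher by GFP in clusters, and 33.3% and 18.1% in endothelium. For clusters against endothelium the shares were 24.2% and 26.1% among GFP+ cells, and 12.4% and 11.9% among GFP- cells. The folding and modifying enzymes of the endoplasmic reticulum, 20 of 20 tested, had 10 falls and 1 rise with GFP in clusters, 5 falls and 9 rises in endothelium, and 16 falls and no rise in clusters against endothelium among GFP+ cells. Among GFP- cells 8 were lower and none higher. Colgalt2, which adds galactose to collagen hydroxylysine, was lower in GFP+ clusters than in GFP+ endothelium (-0.95, adjusted p = 0.000592). Plod2, a lysyl hydroxylase that sets the type of cross-link, fell with GFP in endothelium (-0.89, adjusted p = 0.000832) and in clusters (-0.48, adjusted p = 0.0084). P3h3, a prolyl 3-hydroxylase family member, rose with GFP in endothelium (0.70, adjusted p = 0.000952), and Fkbp14, a folding helper, was lower in GFP+ clusters than in GFP+ endothelium (-0.81, adjusted p = 0.000488).

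Of 17 genes for processing and cross-linking 11 were tested, with 6 falls and 1 rise by GFP in clusters, 1 fall and 3 rises in endothelium, 9 falls and no rise for the classes among GFP+ cells, and 1 fall and 2 rises among GFP- cells. The calls in endothelium are below the share of all genes called there in either direction (51.5%), and those among GFP- cells are near it (24.3%). Adamts2 and Adamts14 cut the amino-terminal propeptide from fibrillar procollagens. Adamts14 fell with GFP in clusters (-1.60, adjusted p = 3.83e-05) and in endothelium (-0.90, adjusted p = 0.000253). Adamts2 was not well above background in GFP+ clusters and at least 2.44-fold lower there than in GFP- clusters (adjusted p = 0.000268). Pcolce2, an enhancer of carboxy-terminal cleavage, was lower in GFP+ clusters than in GFP+ endothelium (-1.26, adjusted p = 0.00873), and Tgm2, a cross-linking transglutaminase, rose with GFP in endothelium (0.89, adjusted p = 0.00026). The cross-linking enzyme gene Lox was not well above background on any array.

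The receptors, 13 of 13 tested, had 4 falls and 2 rises by GFP in clusters, 6 falls and 4 rises in endothelium, 7 falls and 2 rises for the classes among GFP+ cells, and 4 falls and 1 rise among GFP- cells. Adgrg1, an adhesion receptor that binds collagen III, stood at -0.45 and -0.45 in GFP- endothelial cells, 0.50 and 0.39 in GFP+ endothelial cells, 1.65 and 1.62 in GFP- cluster cells, and 3.75 and 3.59 in GFP+ cluster cells. Its order was the reverse of that of Col4a1 and Col3a1 in clusters, with GFP+ clusters highest and 3.23 above GFP+ endothelium on the log2 scale (adjusted p = 9.11e-06). Adgrg6, which binds type IV collagen, rose with GFP in endothelium (1.68, adjusted p = 0.00015) and in clusters (0.49, adjusted p = 0.00693). Ddr1, a collagen-activated kinase, fell with GFP in clusters (-1.28, adjusted p = 0.00663), where 1 GFP+ array was not well above background. Gp6, the platelet collagen receptor, was lower in GFP- clusters than in GFP- endothelium (-1.85, adjusted p = 0.00354).

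Of 15 genes of collagen breakdown and its inhibitors 9 were tested, with 4 falls and 1 rise by GFP in clusters, 1 fall and 5 rises in endothelium, 7 falls and no rise for the classes among GFP+ cells, and 3 falls and no rise among GFP- cells. Mmp2, which cleaves type IV collagen and gelatin, rose with GFP in endothelium (0.75, adjusted p = 0.000339) and fell in clusters (-0.36, adjusted p = 0.00358). Reck, a membrane inhibitor of such enzymes, rose in endothelium (0.61, adjusted p = 0.00104). Timp3, a matrix-bound inhibitor, fell with GFP in endothelium (-0.68, adjusted p = 0.000536) and in clusters (-0.76, adjusted p = 0.000342), and Mmp15 fell in clusters (-0.78, adjusted p = 0.000238).

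Partners of type IV collagen in the basement membrane, 19 of 20 tested, had 10 falls and 4 rises by GFP in clusters, 4 falls and 8 rises in endothelium, 17 falls and 1 rise for the classes among GFP+ cells, and 8 falls and 2 rises among GFP- cells. Laminin chains led the rises in GFP+ endothelium: Lamc3 by 1.97 (adjusted p = 0.000398), Lamb3 by 1.65 (adjusted p = 0.000239), Lama3 by 1.43 (adjusted p = 0.00157) and Lama5 by 1.22 (adjusted p = 7.67e-05) on the log2 scale. Lamb3 was not well above background in either cluster group. Lama5 also rose in GFP+ clusters (0.94, adjusted p = 9.37e-05), where Col4a1 and Col4a2 fell.

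Partners of fibrils, 13 of 20 tested, had 5 falls and 1 rise by GFP in clusters, 6 falls and 1 rise in endothelium, 8 falls and no rise for the classes among GFP+ cells, and 5 falls and no rise among GFP- cells. The calls in endothelium are near the share of all genes called there in either direction (51.5%). Dcn and Lum of this list have been given with the mesenchyme markers. Fbln2 (fibulin-2) rose with GFP in endothelium (1.90, adjusted p = 7.25e-05) and in clusters (0.81, adjusted p = 0.000574). Thbs1 was lower in GFP- clusters than in GFP- endothelium (-1.70, adjusted p = 0.00014), and Thbs2, not well above background in 3 groups, was at least 1.16-fold lower in GFP+ clusters than in GFP+ endothelium (adjusted p = 0.00967).

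**Figure D4:**
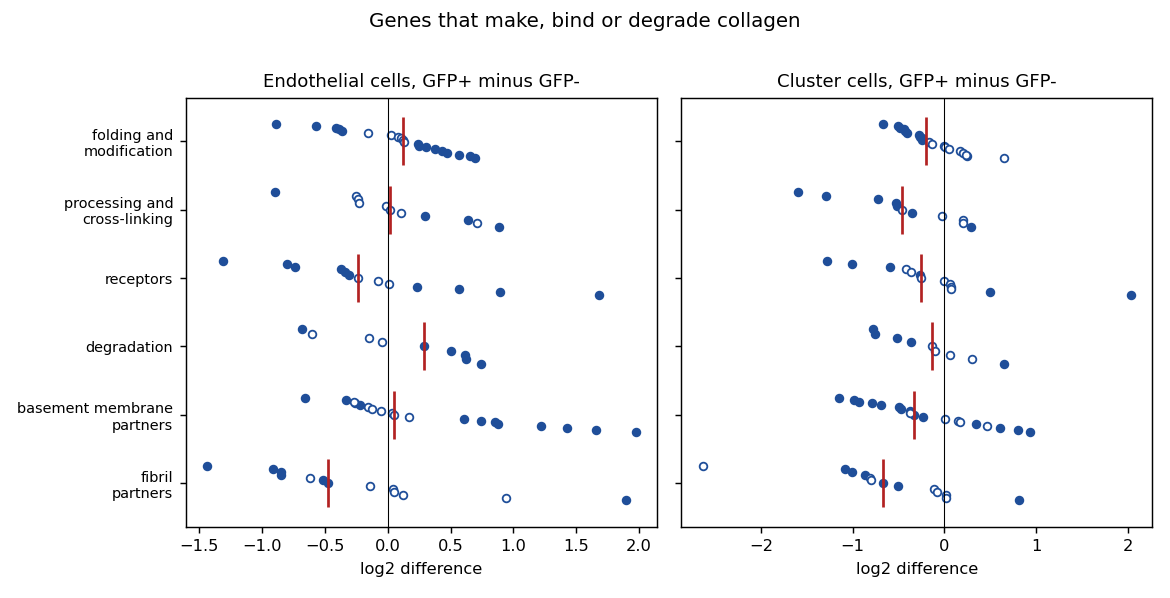
Log2 difference between GFP+ and GFP- cells for the tested genes of 6 lists, in endothelial cells (left) and cluster cells (right); points are genes, filled where they passed the test, and red bars are list medians. Laminin chains form the right end of the basement membrane partners in endothelium, and all 6 list medians in clusters lie below 0.

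The size of the calls depended on the background correction. Each of the 91 called collagen values had the same sign on both slides. A call already needs arrays of a group to lie close, and the slides carry divided RNA, so this is not separate evidence. After normexp correction of the raw signals, 0, 1, 0, 0 and 0 chains were called in the 5 comparisons in the order given, and at most 0.701% of all genes. That correction set the 1st percentile of the second GFP- endothelial array at 685 signal units, against 56.6 to 75.1 on the other 7 arrays. In endothelium the scaling also bears on direction: the median of all genes was -0.13 here and -0.03 after quantile normalization, and 35.2% of all called genes were higher here, against 50.7% there. Relative to the median of all genes, the endothelial GFP difference was 0.60 for Col4a1, -0.20 for Col1a2 and -0.13 for Col5a1, and 12 of the 31 chains lay above that median.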

How the data were processed

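The study deposited 1 scanner file per array and a single table of normalized values. Per the file headers, Agilent Feature Extraction 10.10.1.1 read the images, and its deposited intensity values include a background-corrected processed signal; probe positions are on build mm9. Per the labels' protocols, divided RNA was amplified with a NuGEN RNA-Seq kit and 50 ng labelled with Cy3. The normalization behind the authors' deposited table of signal intensity is not stated by the labels or headers; the values were linear, with a median of 198 in every column, and served only as an alternative.

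Log2 of the processed signal minus each array's 75th percentile (708 to 1477 signal units) was used. Outlier spots were left out, spots of a probe averaged, and names updated by RefSeq accession for 26049 probes, by name for 3194 and kept for 10176. A gene needed 2 arrays of a group well above background: 19538 genes. Limma 3.58.1 in R 4.3.3 (with version 1.17.8 of data.table) fitted 4 group means over 8 arrays (4 residual degrees of freedom), two-sided, Benjamini-Hochberg adjusted over all genes and checked on simulated data. Errors are standard errors of the fit. Replicate 1 of every group lay on 1 slide and replicate 2 on another; the replicate differences of all pairs of groups correlated at 0.139 to 0.359, so the slide pairs the arrays. The position on the slide and the group cannot be told apart. Where both arrays of a group were not well above background, the level is a bound, set no lower than the array's lowest signal well above background. That signal is not a detection limit for every probe, so such folds are approximate.

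The members and all gene lists were chosen with earlier results of these data known. Named in full were type IV and fibrillar chains and other chains with a called change of at least 2-fold, and from each list at most 4 genes with the largest called changes. Alternatives were normexp correction, quantile normalization, the authors' table, the mean over all probes of a gene, other filters for dim probes, a block for the slide, moderation, only the compared groups, a 2-fold threshold, each array left out, each slide alone and, chosen after seeing the data, 50 added to each signal. The number of arrays, the signal over background and the sharing of each RNA by both arrays limit the precision.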

Additional observations from a re-analysis of the deposited data

Results flagged for a closer look

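For 17 chains the GFP difference in clusters was unlike that in endothelium by the interaction test of the difference itself (limma, adjusted p below 0.05 over all genes), where 31.1% of all genes were called. Negative values mean that the GFP difference was lower in clusters.

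Among type IV chains the interaction was -0.86 for Col4a1, -0.77 for Col4a2, -0.97 for Col4a5, -0.52 for Col4a6 and 0.93 for Col4a4. The sign of the GFP difference turned for Col4a1, Col4a2 and Col4a5, each called higher in GFP+ endothelium and lower in GFP+ clusters, whereas Col4a6 was called lower in both classes. A second Col4a6 probe, well above background on all 8 arrays, gave an interaction of 0.25. Averaged over probes, the calls of Col4a6 (-0.14, adjusted p = 0.475) and Col4a4 (0.76, adjusted p = 0.0834) were lost. That of Col4a4 was also lost with 50 added to each signal.

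Among fibrillar chains it was -0.61 for Col1a1, -0.50 for Col1a2, -0.75 for Col3a1, -0.60 for Col5a1, -1.22 for Col5a2, -1.65 for Col5a3, -0.80 for Col11a1 and -0.94 for Col27a1. Col1a1, Col1a2, Col3a1 and Col5a1 fell in both classes, by more in clusters. Col5a3 was not well above background in GFP+ clusters, so its value depends on signals near background.

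Among the other chains it was -0.31 for Col14a1, -0.92 for Col23a1, -1.89 for Col12a1 and -0.26 for Col7a1. Col12a1 was likewise not well above background in GFP+ clusters. The Col7a1 value did not pass with the slide as a block (adjusted p = 0.0567) or where probes were averaged for all genes (adjusted p = 0.0516). Averaged over its probes, the Col14a1 value was 0.0509 (adjusted p = 0.849). The calls of Col11a1, Col12a1, Col14a1, Col1a2, Col4a4, Col4a6 and Col7a1 were lost without at least 1 single array, and the other 10 were kept when single arrays were left out.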

How the results depend on the processing

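The counts of called chains were 22, 20, 24, 8 and 17 for GFP in clusters, GFP in endothelium, the classes among GFP+ cells, the classes among GFP- cells and the interaction. They stayed within 1.5 times of this under quantile normalization (22, 16, 25, 8 and 19), the authors' table (22, 17, 25, 8 and 17), the slide as a block (21, 19, 24, 8 and 16), the mean of a gene's probes, trend and robust moderation, and 50 added to each signal (22, 19, 25, 8 and 17), the last chosen after seeing the data. With 50 added, all 25 chains called between the GFP+ classes were lower, so neither Col4a4 nor Col11a2 was called higher. Normexp correction gave 0, 1, 0, 0 and 0 and a fitted fold of at least 2 gave 6, 2, 9, 0 and 3. Without a filter on dim probes, 2 of 40 chains were called for the classes among GFP- cells and 10 of 40 for the interaction. In that setting the shares of all genes called were 4.6% and 8.6%, against 24.3% and 31.1% with the filter. The share of all genes called also fell whenever an array of a compared group was left out. Leaving out each array in turn gave 18 to 22, 13 to 21, 23 to 25, 2 to 9 and 12 to 16. In endothelium 13 were called without the second GFP- or the second GFP+ endothelial array. For the classes among GFP- cells 2 were called without the first GFP- endothelial or the first GFP- cluster array and 4 without the second of either. Of 91 called values, 64 kept their call without each array.

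The pairing by slide, as a replicate block, ended 3 calls (Col27a1 in clusters, Col11a1 in endothelium and the Col7a1 interaction) and changed no other call.

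After normexp the difference in endothelium reversed for Col11a1 (-0.68), Col13a1 (-0.57), Col27a1 (-0.45) and Col4a5 (-0.12), and the interaction for Col11a1 (0.49), Col12a1 (0.66), Col14a1 (0.13), Col27a1 (0.23), Col4a6 (0.0457), Col5a3 (0.42) and Col7a1 (0.48). None of these passed, and the cause was not tested. The mean of a gene's probes reversed clusters against endothelium among GFP+ cells for Col14a1 (0.0716) and Col9a1 (0.25), and the Col14a1 interaction (0.0509), where a dimmer probe enters the mean. Depth is not defined for arrays, and 9 chains were too near background on these arrays to be tested.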

Other observations

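Further collagen chains are on the array under other names and were left out by the naming rule, so they entered no count above. Col26a1, a chain with an EMI domain named Emid2 in the array files, stood at 1.38 and 1.33 in GFP- endothelial cells, 0.24 and 0.45 in GFP+ endothelial cells, 1.29 and 1.26 in GFP- cluster cells, and 0.12 and 0.08 in GFP+ cluster cells. Both GFP- groups lay above both GFP+ groups, as for Col15a1. Unlike for Col15a1, whose GFP+ groups overlapped, GFP+ clusters lay below GFP+ endothelium. A second probe, named in the files by its transcript, stood at 1.45 and 1.40, 0.49 and 0.39, 1.23 and 1.23, and 0.15 and 0.07.

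The third chain of type VI filaments, Col6a3, was also present under a transcript name. It stood at -2.64 and -2.62 in GFP- endothelial cells, -2.51 and -2.48 in GFP+ endothelial cells, -3.05 and -2.85 in GFP- cluster cells, and -3.76 and -3.66 in GFP+ cluster cells. It was thus highest in GFP+ endothelium, unlike Col6a1, which was highest in GFP- endothelium. The probes of Col6a4 and Col6a5 were not well above background on any array. No test was made of these chains.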
